A study of Mus musculus with 16 samples.

Results

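The expression of 8 genes of muscle formation and regeneration was examined in gastrocnemius, a calf muscle, of 16 mice. They were the myogenic regulatory factors Myod1, Myog, Myf5 and Myf6, the satellite cell factor Pax7, the developmental myosin heavy chains Myh3 and Myh8, and the adhesion molecule gene Ncam1. The members were all probes that the array files named for 1 of these 8 genes, 19 probes of 8 genes among 41174 probes and 27745 gene names on the array. The male C57BL/6N mice were adult, aged 3 months when the diets began. For 8 weeks all 16 mice ate a high-fat diet based on corn oil (cHF) to which the PPARγ agonist rosiglitazone (ROSI) was added at 10 mg per kg diet. In 8 of them (cHF+F+ROSI) a concentrate of the n-3 fatty acids of fish oil (F) replaced 15% of the dietary lipids, and the other 8 (cHF+ROSI) did not receive it. The study kept 2 mice per cage, but the labels do not tie the mice to cages or litters. The p-values therefore measure the spread between these mice and treat cage mates as independent. Each cHF+ROSI sample was labelled a second time for another experiment, not analysed here. Before death the mice were fasted for 10 hours and given Chow overnight. Each mouse was hybridised once in the Cy5 channel against a common reference pool in the Cy3 channel, so every value is a log2 ratio of the mouse to that pool. The arrays lay on 4 slides with 2 mice of each group on each slide, and the position on the slide went with the diet and cannot be told apart from it.

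Skeletal muscle is made by myoblasts that fuse into fibres, and its repair starts from satellite cells, the resident stem cells that carry Pax7. Myf5 and Myod1 commit these cells to the muscle lineage, Myog drives their differentiation, and Myf6 is the factor of this family that mature fibres keep at a high level. The embryonic myosin Myh3 and the perinatal myosin Myh8 are replaced by adult myosins after birth and return in regenerating fibres. Ncam1 is known to appear on satellite cells, on regenerating fibres and on fibres that have lost their nerve, where Myog also rises.

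The myogenic factors act on a DNA word called the E-box, CANNTG, often near a site of the MEF2 family, searched here as CTANNNNTA. The 250 bases before the start of Myog (chr1:134289754-134290003, plus strand) and of Myh3 (chr11:67078050-67078299, plus strand), both measured above background here, are shown with those of Myf5 (chr10:107486135-107486384, minus strand), which was not. Capitals mark matches to either word on either strand, in RefSeq sequence of GRCm38.p6, where 5 of the 8 members had an entry.
Myog: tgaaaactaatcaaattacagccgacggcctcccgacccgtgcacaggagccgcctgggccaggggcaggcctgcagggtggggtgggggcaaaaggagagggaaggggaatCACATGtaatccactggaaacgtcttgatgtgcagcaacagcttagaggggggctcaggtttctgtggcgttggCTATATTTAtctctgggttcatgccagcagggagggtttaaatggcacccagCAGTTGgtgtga
Myh3: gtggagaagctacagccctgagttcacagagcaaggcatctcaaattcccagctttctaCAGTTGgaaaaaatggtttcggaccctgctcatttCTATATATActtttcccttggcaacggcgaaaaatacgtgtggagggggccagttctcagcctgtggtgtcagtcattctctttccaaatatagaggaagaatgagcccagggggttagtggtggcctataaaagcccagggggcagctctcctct
Myf5: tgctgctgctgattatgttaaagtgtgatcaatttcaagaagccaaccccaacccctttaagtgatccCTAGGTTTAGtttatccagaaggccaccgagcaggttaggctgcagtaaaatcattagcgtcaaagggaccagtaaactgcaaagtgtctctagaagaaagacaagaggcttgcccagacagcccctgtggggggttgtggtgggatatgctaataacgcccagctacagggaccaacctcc
The Myog stretch held 2 E-box matches and 1 CTANNNNTA match, and the Myh3 stretch held 1 of each. The Myf5 stretch held 0 E-box matches and 2 overlapping CTANNNNTA matches. Of the entries not shown, Pax7 held 0 matches to either word, and Myh8 held 1 E-box match and 2 CTANNNNTA matches. An E-box match was found in 66.2% and a CTANNNNTA match in 19% of 32851 stretches of the same length, so these are common words and the matches are a description only.

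All 7 markers of skeletal muscle, among them Acta1, Ckm and Myh4, were well above background on 16 of 16 arrays. The median Cy5 signal of an array was 2.33 to 3.64 times background and that of Cy3 1.78 to 2.02 times, with cHF+ROSI 1 the dimmest array in Cy5. When the pool signals (Cy3) of the 2 sets of arrays were compared, 0 of 10 member probes passed an unadjusted p of 0.05 in limma, against 3.2% of all probes. The normexp background correction used for the tests compressed 3 arrays, cHF+ROSI 1, cHF+ROSI 5 and cHF+F+ROSI 5, whose log2 ratios kept only 0.49 to 0.62 of the SD that they had without correction, against 0.87 to 1 on the other 13 arrays. For that reason the value of each mouse is given below without background correction, and the fitted differences of the main member probes are given under both treatments. In whole muscle, fewer cells of a type and less RNA per cell cannot be told apart.

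The member probes ranged from background to saturation, with some in between. Of the 19 probes, 10 probes of 6 genes had a mean signal of at least 2 times background in both channels and entered the tests. Myod1 lay at 10.7 to 41.7 times background in Cy5 and Myog at 11.9 to 76.5 times. Myf6, the factor of mature fibres, lay at 162 to 462 times, and both Myh3 probes lay between 13.7 and 68.4 times. Each of these probes was well above background in Cy5 on 16 of 16 arrays. At the other end, Myf5 was well above background on 0 of 16 arrays, with a signal of 1.59 to 1.81 times background on all of them. No fold is given for Myf5, which was not detectable in either group at this sensitivity. Pax7 stood between, at 2.19 to 3.61 times background in Cy5. It was well above background on 7 of 8 cHF+ROSI and 8 of 8 cHF+F+ROSI arrays, but in the reference channel on only 8 of 16.

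**Figure D1:**
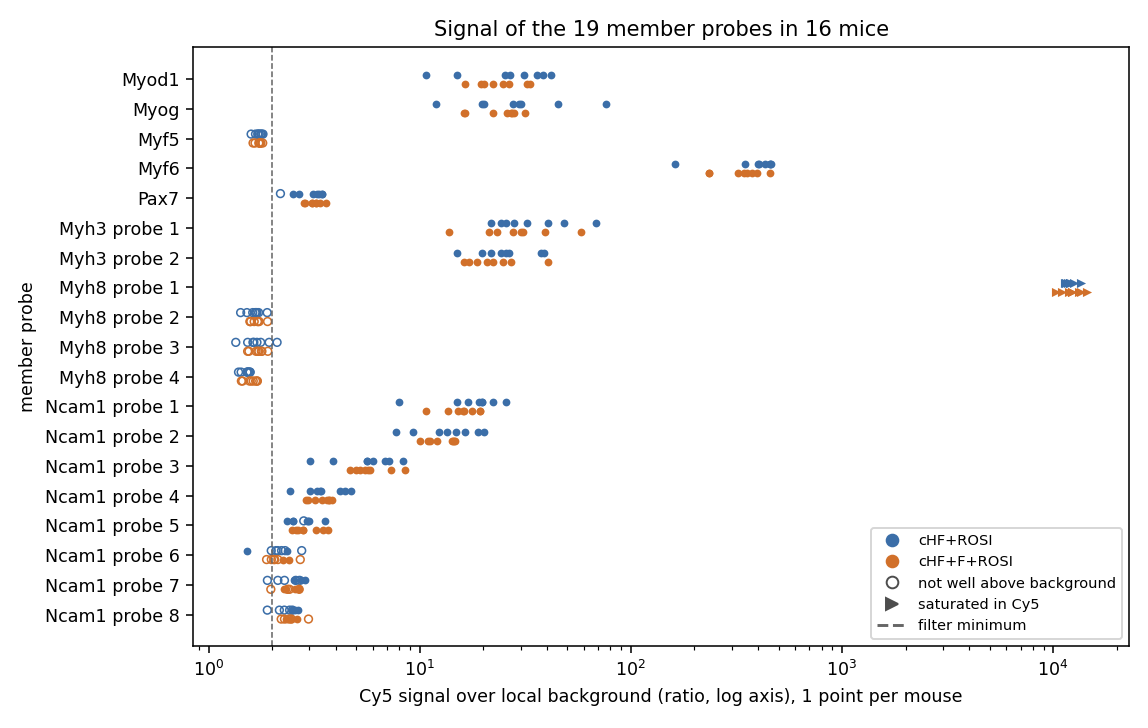
Cy5 signal over local background (log axis) of the 19 member probes, 1 point per mouse, blue for cHF+ROSI and orange for cHF+F+ROSI; open points are not well above background, triangles are saturated, and the dashed line is the minimum of 2. Myf5 and 3 of the 4 Myh8 probes lie at background, and the remaining Myh8 probe lies at the ceiling of the scanner.

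Myog was the member with the largest average difference between the diets. The probe lies on chromosome 1, 136108708 to 136108767 (mm8, plus strand). The cHF+ROSI mice had log2 ratios of -0.37 at the lowest, 0.09 at the median and 1.11 at the highest. In the cHF+F+ROSI mice the lowest was -0.52, the median -0.06 and the highest 0.52. The groups overlapped, and 7 of 8 cHF+F+ROSI mice lay below the cHF+ROSI mean of 0.20 ± 0.44 (SD, n = 8). The difference, cHF+F+ROSI minus cHF+ROSI, was -0.30 (SE 0.17) without background correction, with a 95% interval of -0.66 to 0.07 and an adjusted p of 0.583 in limma. With normexp it was -0.34 (SE 0.16), with an adjusted p of 0.681 in limma and p = 0.0729 in the exact two-sided permutation test, against p = 0.153 without correction. It rested in part on 1 mouse, since without cHF+ROSI 4 the normexp difference was -0.21 (unadjusted p of 0.116, limma), and without cHF+F+ROSI 2 it was -0.41 (unadjusted p of 0.0176, adjusted p of 0.592, limma). Within slides the differences without correction were 0.12, -0.93, -0.32 and -0.05.

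Myod1, the commitment factor, showed no difference beyond the spread of the mice. Its probe lies on chromosome 7, 46246628 to 46246687 (mm8, plus strand). The cHF+ROSI mice ran from -0.51 through a median of -0.01 to 0.33, and the cHF+F+ROSI mice from -0.73 through -0.24 to 0.28. The difference was -0.17 (SE 0.15, 95% interval -0.48 to 0.14) without correction and -0.12 (SE 0.13) with normexp, with adjusted p of 0.716 and 0.88 in limma. Without cHF+F+ROSI 3 the normexp difference was -0.05, and without cHF+ROSI 7 it was -0.19. On slide 4 it was 0.59 without correction, against -0.20, -0.35 and -0.72 on slides 1, 2 and 3.

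The array carried 10 spots each for Myod1 and Myog, which gives the measurement error within a mouse. The SD among the spots of an array was 0.0657 for Myod1 and 0.0606 for Myog on the log2 scale. The SD among mice of a group was 0.324 and 0.383, which is 15.6 and 20 times the standard error of the mean of 10 spots. The mice thus differed from each other in both factors by far more than the spots did, whether or not they differed by diet. Spots of 1 array share the labelling and the hybridisation, so their spread leaves those errors out. For the undetected Myf5, also with 10 spots, the same quotient was 1.6.

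**Figure D2:**
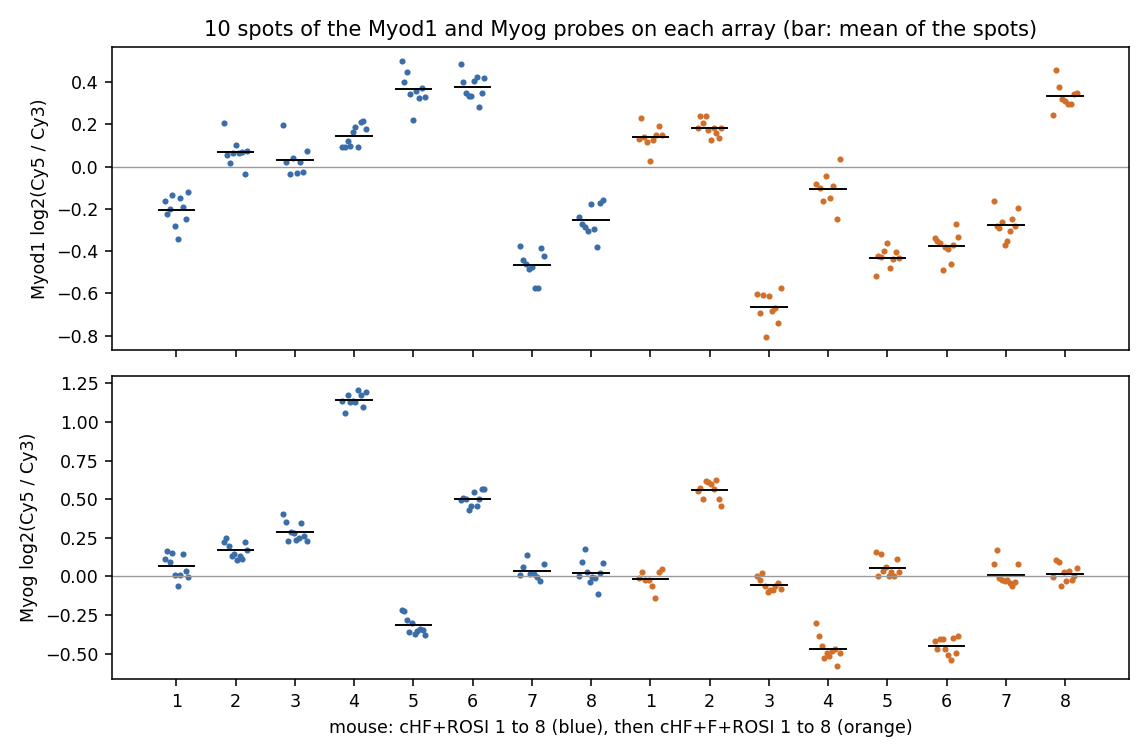
Log2(Cy5/Cy3) of each of the 10 spots of the Myod1 and Myog probes (y axes) on the 16 arrays (x axis), normalised over all spots without background correction, with the mean of the spots as a bar. The spots of a mouse lie close together, while mice of the same diet differ, and the Myog spots of cHF+ROSI 4 lie above those of every other mouse.

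Myf6 differed least between the diets among the factors that passed the filter. It lies on chromosome 10 at 106897291 to 106897350 (mm8, minus strand). The cHF+ROSI mice had log2 ratios of -0.04 to 0.23 with a median of 0.07, and the cHF+F+ROSI mice had -0.31 to 0.35 with a median of 0.11. The SD was 0.09 in the first group and 0.20 in the second, and the difference in spread was not tested. The means differed by -0.01 (SE 0.08, 95% interval -0.17 to 0.15, adjusted p of 0.986, limma) without correction and by -0.01 (SE 0.08, adjusted p of 0.986) with normexp. That interval gives the precision of the mean difference between the groups, from which slide position is not separated. Within slides the differences without correction were 0.08, -0.33, 0.12 and 0.10. Pax7, taken from the fit without the signal filter, differed by 0.02 (SE 0.05, 95% interval -0.08 to 0.13, adjusted p of 0.936, limma) without correction and by 0.03 (SE 0.05, adjusted p of 0.988) with normexp. Its ratio rests on a reference signal that was well above background on only 8 arrays.

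Myh3, the embryonic myosin, varied widely among mice of either diet. Its 2 probes overlap on chromosome 11 (mm8, plus strand), at 66917550 to 66917609 and 66917377 to 66917581, and their residuals from the group means correlated at r = 0.987 over the 16 mice, so they are nearly the same measurement. For the brighter probe the cHF+ROSI mice ran from -0.91 through a median of -0.10 to 0.58. The cHF+F+ROSI mice ran from -0.996 through -0.40 to 0.44. Within the groups, mice 4 (cHF+ROSI) and 3 (cHF+F+ROSI) were highest, mouse 8 was lowest in each, and the groups overlapped over most of their range. The difference was -0.27 (SE 0.22, adjusted p of 0.688, limma) without correction and -0.19 (SE 0.20, adjusted p of 0.877) with normexp. It lay between -0.30 and -0.08 with normexp when each mouse was left out, the smallest being without cHF+ROSI 4. Most of it came from slide 2, where it was -1.14 without correction, against 0.10, 0.05 and -0.08 on slides 1, 3 and 4. The other probe gave -0.18 (SE 0.14) without correction.

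Myh8, the perinatal myosin, could not be compared. Of its 4 probes, the 3 at 67096984 to 67097043, 67101081 to 67101140 and 67111017 to 67111076 of chromosome 11 (mm8, plus strand) were well above background on 0 of 16 arrays. The fourth probe, at 67124618 to 67124677, was at 10200 to 14400 times background and saturated in Cy5 on 15 of 16 arrays. It was 1 of 11 spots saturated on at least 15 arrays, and the others belonged to genes of adult muscle such as Acta1, Myh4, Tcap and Tnnt3. Its ratios ran from 0.71 to 1.47 with cHF+ROSI and from 0.43 to 1.75 with cHF+F+ROSI. The fitted difference was 0.08 without correction, beside a difference of -0.07 in the unsaturated Cy3 signal of the pool. Across mice the residuals of this probe correlated at r = 0.879 and 0.703 with the 2 probes of Myh4, the adult fast myosin of type IIB fibres, and at -0.599, -0.498 and -0.194 with those of Myh2, the myosin of type IIA fibres. The Myh4 probe with the closest relation was itself saturated on 16 of 16 arrays. Of 2 Tnnt3 probes, the 1 saturated on 15 arrays had r = 0.793 and the 1 saturated on 3 had -0.176. The Acta1 probe, saturated on 15 arrays, had -0.209. Which transcript the bright Myh8 probe measured was not tested, and no result on Myh8 is read from it.

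Ncam1 held the 1 member probe that differed before adjustment. Of the 10 member probes tested, 1 passed an unadjusted p of 0.05 with normexp, where 7.44% of all 19398 probes passed and 3.95% were lower, as this probe was. Of the same 10, 0 had an adjusted p of up to 0.05, where 0.0155% of all probes had one (limma). Without background correction the counts were again 1 and 0, against 10.3% (4.91% lower) and 0.0722% of all probes. In the fit of all 41174 probes without the signal filter, 2 of the 19 member probes passed the unadjusted limit with normexp (5.17% of all probes) and 1 without correction (7.95%). The probe, at 49269730 to 49269789 of chromosome 9 (mm8, minus strand), had log2 ratios of -0.20 to 0.15 with a median of -0.05 in the cHF+ROSI mice and of -0.40 to 0.00 with a median of -0.19 in the cHF+F+ROSI mice. The groups overlapped, and 7 of 8 cHF+F+ROSI mice lay below the cHF+ROSI mean. The difference was -0.17 (SE 0.06, 95% interval -0.30 to -0.04, adjusted p of 0.36, limma) without correction, and p = 0.0191 in the exact two-sided permutation test. With normexp it was -0.14 (SE 0.06, unadjusted p of 0.0309, adjusted p of 0.623 in limma, exact permutation p = 0.0298). It was above 0 on slide 3, at 0.09 without correction, and -0.33, -0.31 and -0.13 on slides 1, 2 and 4. With normexp, leaving out cHF+ROSI 3, cHF+F+ROSI 1, cHF+F+ROSI 2 or cHF+F+ROSI 4 gave an unadjusted p of 0.0549 to 0.0703 in limma.

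The other Ncam1 probes gave smaller differences, and among the 4 that passed the filter no difference between probes passed the exact permutation test. The array held 3 more that passed the filter, at 49254445 to 49254504, 49259540 to 49259599 and 49257349 to 49257408 of chromosome 9 (mm8, minus strand). Without correction they differed by -0.07 (SE 0.08), -3.46e-05 (SE 0.06) and -0.03 (SE 0.06). The first and the third of these were designed to the same transcript record and moved together across mice (r = 0.839), while the probe with the low p was unrelated to all 3 (r = -0.0899, -0.00818 and -0.0756). Set against the mean of the other 3 within each mouse, its difference between the diets was -0.14, which did not pass the exact permutation test (p = 0.119, adjusted p of 0.469 over 5 such comparisons of Ncam1 and Myh3 probes). The remaining 4 Ncam1 probes lay at mean signals of 2.18 to 2.9 times background in Cy5 and did not pass the filter. Those at 49319006 to 49319589 and 49298423 to 49298482 were designed to the same transcript record as the probe with the low p. The probe at 49298423 differed by -0.004 with normexp and by -0.008 without correction. One of these, at 49319006 to 49319589, differed by -0.11 with normexp (exact permutation p = 0.00979) but by -0.06 without correction (exact permutation p = 0.0715), and was well above background in Cy5 on only 7 of 16 arrays.

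**Figure D3:**
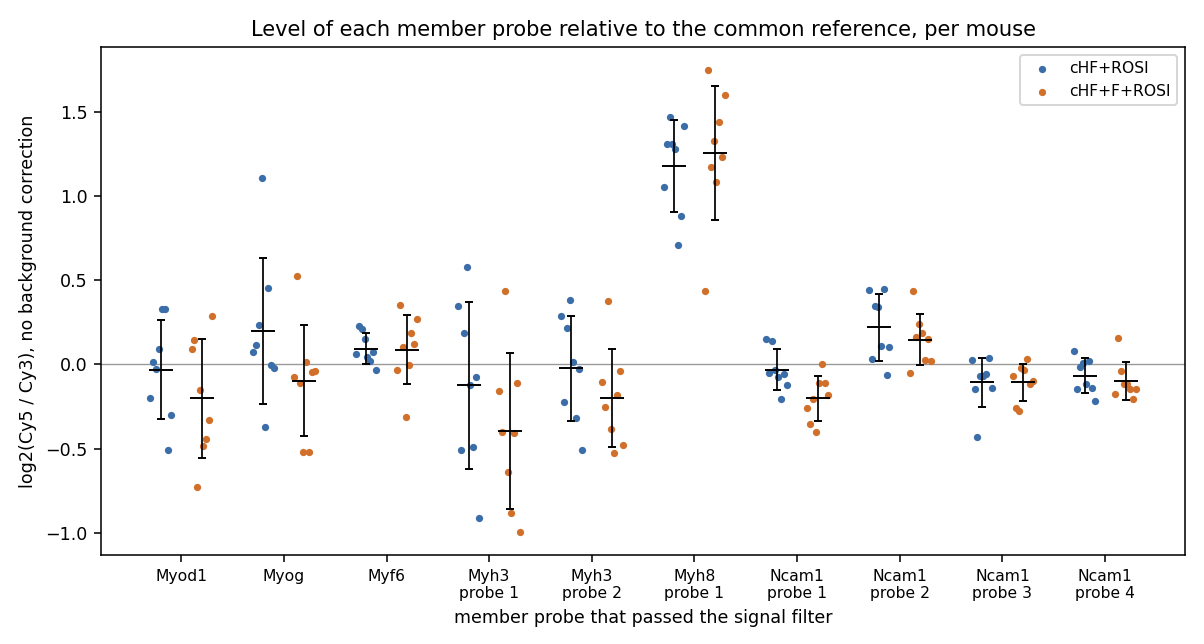
Log2(Cy5/Cy3) without background correction (y axis) of the 10 member probes that passed the filter, 1 point per mouse, with group means and SDs as bars; probes are numbered by brightness. The groups overlap for every probe, and cHF+ROSI 4 stands highest for Myog at 1.11.

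**Figure D4:**
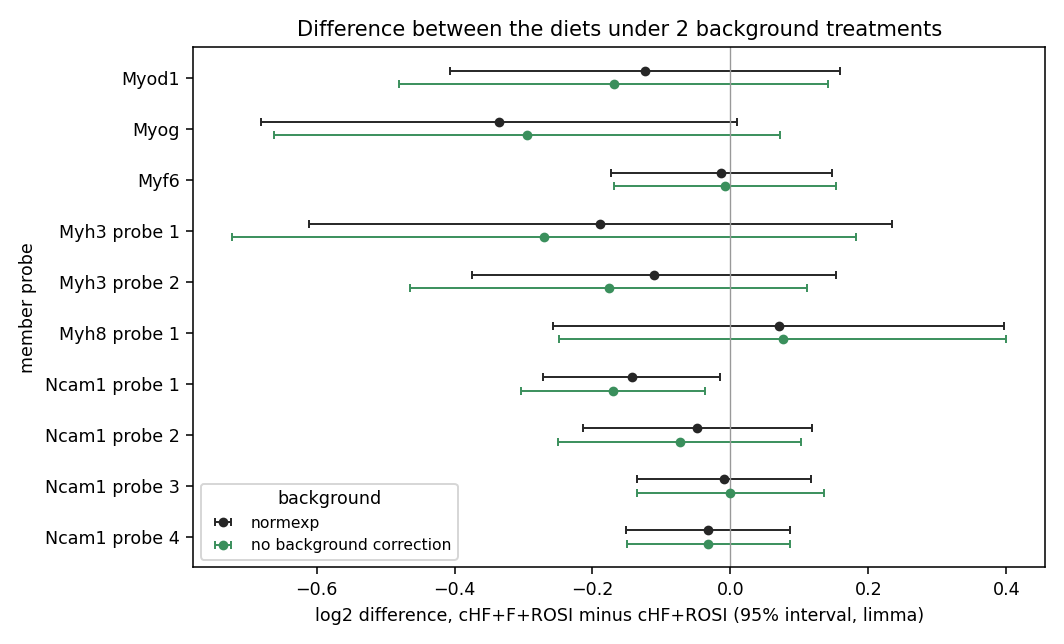
Difference in log2 ratio, cHF+F+ROSI minus cHF+ROSI (x axis), of the same 10 probes with 95% intervals from limma, with normexp in black and without background correction in green. Only the interval of Ncam1 probe 1 lies off 0 under both treatments, at -0.27 to -0.01 with normexp and -0.30 to -0.04 without correction, before adjustment for the number of probes.

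In direction, 9 of the 10 tested member probes were below 0 under either treatment, with a median of -0.079 with normexp and -0.12 without correction, against -0.0012 and 0.0011 over all 19398 probes, of which 50.7% and 49.3% were below 0. Of the 9, Myf6 at -0.01 and the Ncam1 probe at -3.46e-05 without correction, lay so near 0 that they changed sign in 11 and 19 of 48 alternatives, and the 1 above 0 was the saturated Myh8 probe. The 10 probes stand for 6 genes only, and 6 of them belong to Myh3 and Ncam1.

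Across mice the relations between members ran in both directions. In residuals from the group means over the 16 mice, Myod1 and Myog correlated at r = 0.27, Myog and Myf6 at 0.441, Myog and the brighter Myh3 probe at 0.277, and Myod1 and Myh3 at -0.24. The highest values between genes were those of Myog with 2 of the Ncam1 probes, 0.514 and 0.562, and of Myf6 with the saturated Myh8 probe, 0.475. These values share arrays and are given as a description. The genes whose residuals were most like those of a member also differed from member to member. For Myod1 they were CN524910 (r = 0.917), the hormone gene Pthlh (0.911) and the cyclin-dependent kinase inhibitor Cdkn2b (0.907). For Myog they included Rutbc2 (0.819) and the G protein subunit Gnb1 (0.807). Myf6 was nearest to Synpo2l (0.81), A630005I04Rik (0.801) and the ribosomal protein gene Rpl8 (0.8). Myh3 was nearest to the small heat shock protein gene Cryab (0.832), AV152162 (0.795) and Rhbdf2 (0.786), and the saturated Myh8 probe to Myh4 (0.879), Pde1a (0.84) and Hif1an (0.831). The Ncam1 probe with the low p was nearest to Ankrd9 (0.914), Nsun2 (0.886) and Eif3s3 (0.871).

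The mice with the highest Myog were set beside the denervation genes. They were cHF+ROSI 4 at 1.11 and cHF+F+ROSI 2 at 0.52. Ankrd1, a stress-responsive muscle protein gene, was highest in these same mice within their groups, at 0.96 and 1.25. The residuals of Myog and Ankrd1 correlated at r = 0.543 over the 16 mice and at -0.137 over the 14 mice without both. Gadd45a, chosen after its values were seen, was at 0.84 in cHF+ROSI 4, at 0.30 in cHF+F+ROSI 2, but was as high in cHF+ROSI 7 (0.86), where Myog lay below 0. Its r with Myog was 0.4, and -0.162 without both mice. For Sln and for Chrna1, the acetylcholine receptor alpha subunit gene, r with Myog was 0.00957 and 0.165. Of the 14 denervation genes tested, 4 were highest of the cHF+ROSI mice in cHF+ROSI 4, and 5 were highest of the cHF+F+ROSI mice in cHF+F+ROSI 2. Over all probes the same mice were highest of their groups in 8.42% and 21.5%. With the mean of the 14 denervation genes, residuals correlated at r = 0.69 for both Myh3 probes, 0.48 for Myf6, 0.4 for Myog and -0.43 for Myod1. These relations were not tested. The acetylcholine receptor subunit genes Chrng, of the fetal receptor, and Chrnd did not pass the filter.

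**Figure D5:**
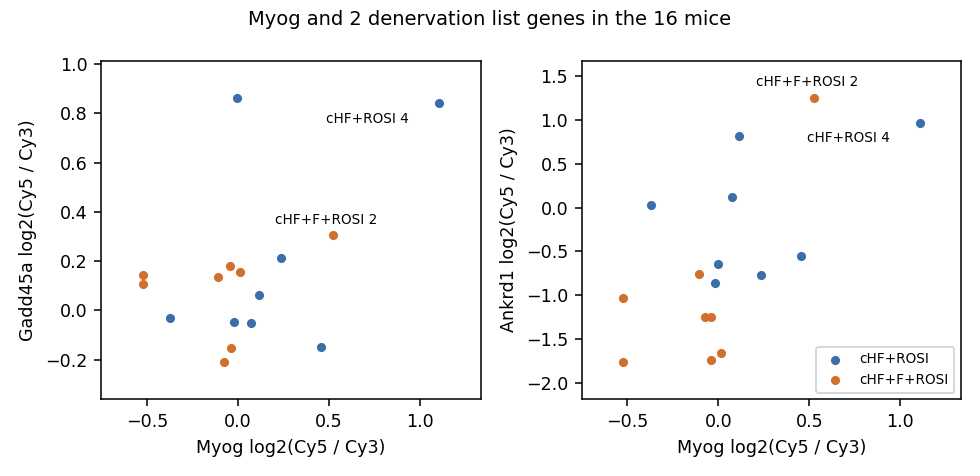
Log2(Cy5/Cy3) of Gadd45a and Ankrd1 (y axes) against that of Myog (x axes) in the 16 mice without background correction, blue for cHF+ROSI and orange for cHF+F+ROSI. The mice cHF+ROSI 4 and cHF+F+ROSI 2 lie highest in Myog and in Ankrd1 within their groups, while cHF+ROSI 7 is as high as cHF+ROSI 4 in Gadd45a.

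Because cHF+F+ROSI 2 also had the lowest slow fibre genes of all mice (mean log2 ratio of -2.34 over 9 genes), the members were set against the mean of those genes. No member passed after adjustment over the 6 members tested. For Myh3 the values were r = 0.452 (permutation p = 0.0768) and rho = 0.532 (p = 0.036, adjusted p of 0.108), with r = 0.518 within cHF+ROSI and 0.322 within cHF+F+ROSI, and r = 0.549 without the 2 mice farthest from the median. Ncam1 had r = 0.533 (permutation p = 0.0343, adjusted p of 0.154), which fell to 0.167 without those 2 mice, and rho = 0.332. Myog had r = -0.119, rho = 0.0706 and Myod1 r = -0.205, rho = -0.215, with permutation p of 0.423 or more. Within groups Myod1 was at 0.181 and -0.61, and Myog at 0.0734 and -0.583. Without cHF+F+ROSI 2 the value within cHF+F+ROSI turned to 0.459 for Myog and was 0.819 for Myh3 and -0.689 for Myod1. The saturated Myh8 probe had r = -0.494 and rho = -0.571 (permutation p of 0.0557 and 0.0232, adjusted p of 0.154 and 0.108).

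The pathway around the members was read from 14 lists of genes, with the brightest probe standing for a gene. Of 147 listed genes tested, 13 passed an unadjusted p of 0.05 with normexp, 11 lower and 2 higher with cHF+F+ROSI, and 0 passed after adjustment (limma). Without correction 17 did, 12 lower and 5 higher. These are 8.84% and 11.6% of the listed genes, near the 7.44% and 10.3% of all probes. By direction, the 11 and 12 lower genes were a larger share than the 3.95% and 4.91% of all probes that were lower. Counts of single lists below stand beside these shares, and no list was tested as a set. All medians below are with normexp, beside -0.0012 over all probes.

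Among 28 cofactors and inhibitors of the myogenic factors tested, 2 were lower before adjustment and 0 higher, with a median of -0.052. Both directions together, that share is near the 7.44% of all probes, while 3.95% of all probes were lower. The homeobox factor Six4 differed by -0.17 (SE 0.06) and the transcriptional repressor Bhlhe40 by -0.32 (SE 0.10), with unadjusted p of 0.00695 and 0.00369 and adjusted p of 0.458 and 0.404 in limma. Without correction Six4 was at -0.02 ± 0.12 with cHF+ROSI and -0.19 ± 0.09 with cHF+F+ROSI, and Bhlhe40 at 0.26 ± 0.24 and -0.05 ± 0.15 (SD, n = 8 each). Of the MEF2 partners of the myogenic factors, Mef2a differed by 0.13 (SE 0.07), with an unadjusted p of 0.0605 with normexp and 0.0457 without correction in limma, Mef2c by -0.01 (SE 0.12) and Mef2d by 0.0017 (SE 0.08). Mstn, the secreted inhibitor of muscle growth, differed by 0.22 (SE 0.13).

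Of 16 satellite cell genes tested, Vcam1, an adhesion molecule, was higher by 0.20 (SE 0.07) and Hey1, a Notch target, differed by -0.21 (SE 0.08), both before adjustment only, with a median of -0.052 over the list. The satellite cell cadherin Cdh15 differed by -0.09 (SE 0.07), Sdc4, a heparan sulfate proteoglycan, by -0.16 (SE 0.10), and Calcr did not pass the filter. In the other direction, Met differed by 0.12 (SE 0.09), Chodl by 0.06 (SE 0.10) and Fgfr1 by 0.06 (SE 0.12). Of 18 differentiation and fusion genes, Itgb1 at -0.12 and Tmem182 at -0.13 were lower before adjustment, with a median of -0.06. The list also held Trim63 at -0.12 and Fbxo32 at 0.15, which are not differentiation or fusion genes. The other 2 probes of Itgb1 differed by 0.01 and -0.05. The members of this list farthest from 0 were Myom3 at -0.29, Mb at -0.28 and the cell cycle inhibitor Cdkn1a at -0.22, with unadjusted p of 0.218, 0.131 and 0.201 in limma. Of 11 cell cycle genes tested, 0 passed an unadjusted p of 0.05 by limma with or without correction (median -0.05), and Mki67, a marker of dividing cells, differed by -0.04 (SE 0.09). Farthest from 0 were Aurka at 0.15, Mcm6 at -0.14 and Ccnd1 at -0.12. The other 9 cell cycle genes did not pass the filter.

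Of 14 denervation genes, Ankrd1 at -0.85 (SE 0.38) and Sln, the inhibitor of the calcium pump, at -0.58 (SE 0.27) were lower before adjustment, with adjusted p of 0.629 and 0.666 in limma. The list median was -0.13. Without correction Sln had an unadjusted p of 0.0511 in limma and no longer passed, while Musk, the receptor kinase of the neuromuscular junction, at 0.18 (SE 0.08), passed the unadjusted limit with p of 0.0386. Chrna1 differed by -0.09 (SE 0.08) with normexp. Among 9 other developmental contractile genes, the cardiac troponin gene Tnnt2 differed by -0.22 and the cardiac actin gene Actc1 by 0.23. They went in opposite directions (median -0.07), both before adjustment only. The embryonic light chain Myl4 differed by -0.25 (SE 0.14). This list also held Acta2, Tagln, Myh10, Myh14 and Actn1, genes of smooth muscle or of cells other than muscle. Of 12 adult fast contractile genes 0 passed an unadjusted p of 0.05 with normexp, and without correction 1 did, the fast light chain Mylpf (median -0.029). Of 9 slow fibre genes 0 did under either treatment, although their median was -0.37. The mean of these genes differed by -0.348 without correction, and by -0.0881 without cHF+F+ROSI 2.

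Ncam1 and the satellite cell genes are not of fibres alone, so genes of other cells of the muscle were also read. Schwann cells also carry Ncam1, and their 9 genes had a median of -0.094 with 0 below an unadjusted p of 0.05 in limma under either treatment. Their mean ratio ran from -0.316 to 0.713 with cHF+ROSI and from -0.463 to 0.629 with cHF+F+ROSI. Its residuals correlated with the 4 tested Ncam1 probes at r = -0.24, 0.47, 0.14 and 0.38, in order of brightness, and its part in their values was not tested. In the same order, r was 0.55, 0.25, -0.33 and 0.4 with the mean of the denervation genes. With the mean of the differentiation and fusion list, Trim63 and Fbxo32 included, r was 0.8, -0.065, -0.13 and -0.078. Of 5 fibroblast genes, Pi16 differed by -0.65 (SE 0.23), before adjustment only, with a list median of -0.039. Of 4 endothelial genes, Cdh5 differed by -0.16 and Kdr by -0.27, before adjustment only, with a list median of -0.16. Pecam1, at -0.16, passed the unadjusted limit only without correction. That made 2 of 4 endothelial genes lower with normexp and 3 of 4 without correction. Over all probes 3.95% and 4.91% were lower at the same limit. A difference of this list as a set was not tested. Of 4 muscle spindle genes and 5 macrophage genes 0 were below the limit with normexp, with medians of -0.049 and 0.055, and 1 spindle gene, Etv4, was so without correction. Of 4 adipocyte genes 0 were below it under either treatment, with a median of 0.38 and a mean ratio of -1 to 0.468 with cHF+ROSI and -1.44 to 1.08 with cHF+F+ROSI.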

How the data were processed

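RNA of the gastrocnemius of each mouse (Cy5) was hybridised with a reference pool (Cy3) to Agilent arrays, without a dye swap. The authors deposited the spot intensities with detection flags, as quantified by Feature Extraction (version 10.5.1.1 per the file headers, 10.5.5.1 per the labels), and a table of normalized log2 values, which served here as an alternative and whose centring is not stated (column medians of 9.47 to 9.49).

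Here the median intensities were background-corrected by normexp (offset 50). Control spots, outlier-flagged spots and spots whose mean signal was under 2 times background in either channel were dropped, loess was applied to log2(Cy5/Cy3) of each array, and spots of a probe were averaged. Groups were compared by limma 3.58.1 (lmFit, eBayes) in R 4.3.3, and p-values were adjusted over 19398 probes (Benjamini-Hochberg). Members outside the filter came from the same fit on all 41174 probes. Single probes were also tested by exact permutation of the 16 mice, and correlations by 100000 permutations. Offset and loess make differences of weak probes smaller, and the number of arrays limits precision. The chain was tested on these arrays with mixed group labels and some probes raised 2-fold in Cy5. That change is larger than any member difference, so the test does not bear on differences of their size. Values per mouse and correlations are given without background correction, a choice made after the compressed arrays were seen.

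The members and the gene lists were chosen with earlier results of these data known, and some genes are not reported here and were left out of the lists. Named genes were the members, listed genes with an unadjusted p of up to 0.05, up to 3 genes farthest from 0 in a list, and the 3 genes most correlated with each tested member. Gadd45a, Cdh15, Met, Chodl, Fgfr1, Calcr, Chrng, Chrnd, Mki67, Musk, Chrna1, Mef2a, Mef2c and Mef2d were named after their values were seen. So were Trim63, Fbxo32, Acta2, Tagln, Myh10, Myh14 and Actn1. Alternatives covered background correction, normalization, the Cy5 channel alone, the authors' table, filters, blocks, the methods' t-test, array weights and each array left out. Probe sequences and positions on another build were not used.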

Additional observations from a re-analysis of the deposited data

Results flagged for a closer look

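A mouse was singled out where its gap to the nearest mouse of its group was, as a share of the group's range, above Dixon's 95% critical value for 8 mice, in ratios without background correction. Chance gives about 1 in 20 such groups, and 4 of the 48 groups examined passed, 2 of them among the 20 groups of member probes. For Ncam1 these were cHF+ROSI 3 at -0.43 on the probe at 49259540 to 49259599, and cHF+F+ROSI 2 at 0.159 on the probe at 49257349 to 49257408. The mouse cHF+F+ROSI 2 also stood apart in Ankrd1, at 1.25, and in Tnnt2, at 0.382. For Myog neither of its highest mice passed that ratio. The part of these mice in the results was not tested beyond the values given without them.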

How the results depend on the processing

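No member probe passed an adjusted p of 0.05 in limma under any alternative (0 of 10), and Myod1, Myog, Myh3 and the brightest Ncam1 probe kept their direction in all 48. The brightest Ncam1 probe passed the unadjusted limit in 42 of 48 and Myog in 9. Each mouse was left out with normexp and again without correction, so most of the 48 share nearly all their arrays. The count of member probes past that limit, 1, was 0 with median centring and with the replicate number as a block (replicate block, Ncam1 p of 0.0552, limma). It was 2 without the filter, with a filter that averaged the channels, with array quality weights and without the 3 compressed arrays (chosen after seeing the data), and 0 to 2 with 1 mouse left out. The numbers did not pair the mice: same-numbered mice correlated at -0.26 to 0.34, with 2 of 8 pairs over 0.1 and 0 of 8 cHF+ROSI mice nearest to their own number. Values near 0 changed sign. The Ncam1 probe at 49259540 gave 0.0166 with Feature Extraction processed signals, 0.0221 with median centring, 0.0993 with Cy5 alone, 0.00892 in the authors' table, 0.0169 with array weights, 0.00492 without the compressed arrays and -0.052 to 0.0242 with 1 mouse left out. Myf6 gave 0.0514 in the authors' table and -0.0496 to 0.049 with 1 mouse left out. The saturated Myh8 probe gave -0.845 with scale normalization, -0.000703 with Cy5 alone and -0.00105 to 0.193 with 1 mouse left out. Without cHF+F+ROSI 2 the correlation with slow fibre genes was 0.171 for Myog and 0.218 for Myf6. The cause of these changes was not tested. Myf5, Pax7, 3 Myh8 and 4 Ncam1 probes did not pass the signal filter, which limits what their differences can show.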
